A study of Mus musculus with 41 samples.

Results

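Red blood cells are built around a small set of very abundant transcripts, and 9 of them are described here: the beta-like globin genes *Hbb-y*, *Hbb-bh1*, *Hbb-bs* and *Hbb-bt*, the alpha-like globin genes *Hba-x*, *Hba-a1* and *Hba-a2*, *Slc4a1*, which encodes the anion exchanger band 3 of the red cell membrane, and *Alas2*, which encodes the erythroid enzyme of the first step of haem synthesis. They were picked by symbol from 22438 genes with ribosome footprint counts and 55385 genes with RNA values, and all 9 were found in each. The fall of *Hbb-y* and *Slc4a1* in embryos without *Hbs1l* was part of the reason for choosing them, so that the embryo comparison is described for these genes without a test.

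The study compared controls with tissues or cells lacking *Hbs1l* (embryos, cerebella and fibroblasts) and with fibroblasts lacking *Pelo* or *Upf2*. HBS1L and PELO release stalled ribosomes, and UPF2 is a factor of nonsense-mediated decay. Ribosome protected fragments (RPF), the stretches of mRNA shielded by ribosomes, were sequenced from whole C57BL/6NJ embryos collected at E8.5, with 3 libraries of *Hbs1l*-/- embryos, which lack exon 5 of the gene, and 3 of wild type, each from pooled embryos, and from C57BL/6J cerebella at P14 (3 *Hbs1l* cKO and 3 *Hbs1l* +/+ libraries, each from the cerebellum of a separate mouse). The cKO mice and their controls both carry Atoh-Cre, and *Atoh1* drives the recombinase in the granule cell lineage of the brain. Primary C57BL/6 fibroblasts (MEFs) carried CAG-Cre ER and were treated with tamoxifen, controls included; RPF came from 3 libraries each of *Hbs1l* cKO, *Pelo* cKO and *Upf2* cKO cells with 3 control libraries per pool, and RNA from 3, 2 and 3 mutant and 3 control libraries, each replicate from the cells of a separate embryo.

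Erythropoiesis in the mouse begins in the blood islands of the yolk sac, where primitive erythroid cells arise as a wave and enter the circulation with their nuclei still in place. These cells translate the embryonic globins *Hbb-y* (epsilon-y), *Hbb-bh1* (beta-h1) and *Hba-x* (zeta) together with the adult alpha genes, whereas definitive red cells, which are made later in liver, spleen and marrow, use *Hbb-bs*, *Hbb-bt* and the adult alpha genes. Within the primitive wave *Hbb-bh1* is known to lead early and *Hbb-y* to take over as the cells mature, which is called globin switching.

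Total RPF per library ranged from 2634480 to 7298812 in embryos, from 10919139 to 22591768 in cerebella and from 5782990 to 25607974 in MEFs, and estimated RNA counts from 22713400 to 86425412. Values are given as CPM, the count relative to the library total on the usual scale, with TMM factors, which bring the libraries of a comparison to a common size. *Hbs1l* itself averaged 4.94 ± 3.58 CPM (SD, n = 3) in *Hbs1l*-/- embryos against 54.4 ± 4.98 (SD, n = 3) in wild type, and 14.5 ± 1.5 against 40.8 ± 3.55 in cerebella. The 8 marker genes of cerebellum summed to between 7424 and 10161 CPM in cerebella and to at most 22.3 CPM in embryos. In MEFs *Hbs1l* and *Pelo* RPF were lower in their own mutants (log2 difference -4.15 and -3.78), whereas *Upf2* RPF were higher in the libraries labelled *Upf2*-/- (116 ± 2.90 against 54.1 ± 4.63 CPM, SD, n = 3). Counts over a whole coding sequence take in exons outside a deletion, so that this value does not check the *Upf2* label. MEF control libraries with the same replicate number in different pools differed by 1.10 to 1.19 times counting noise (chi-square per gene), against 4.07 to 11.7 times for different numbers, and the controls of the 3 pools were not treated as independent.

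The member genes and their sequences set what the counts can tell apart. In GRCm38 with the Gencode M21 annotation, the beta-like genes lie on the minus strand of chromosome 7, *Hbb-y* (ENSMUSG00000052187.4) at chr7:103851749-103853216, *Hbb-bh1* (ENSMUSG00000052217.6) at chr7:103841637-103843164, *Hbb-bs* (ENSMUSG00000052305.6) at chr7:103826534-103828096 and *Hbb-bt* (ENSMUSG00000073940.3) at chr7:103812524-103813996. The alpha-like genes lie on the plus strand of chromosome 11, *Hba-x* (ENSMUSG00000055609.8) at chr11:32276400-32278116, *Hba-a1* (ENSMUSG00000069919.7) at chr11:32283511-32284465 and *Hba-a2* (ENSMUSG00000069917.7) at chr11:32296489-32297298. Each globin gene has 3 exons. *Slc4a1* (ENSMUSG00000006574.15) has 20 exons at chr11:102348824-102366203 on the minus strand, and *Alas2* (ENSMUSG00000025270.13) has 11 exons at chrX:150547375-150570638 on the plus strand.

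The first 60 coding bases of the beta-like genes, from the start codon, are shown to compare the embryonic with the adult genes; capitals mark bases that differ from *Hbb-bs*.
Hbb-bs: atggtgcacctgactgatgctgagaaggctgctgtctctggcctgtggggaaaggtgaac
Hbb-bt: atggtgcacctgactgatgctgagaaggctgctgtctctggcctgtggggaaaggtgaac
Hbb-bh1: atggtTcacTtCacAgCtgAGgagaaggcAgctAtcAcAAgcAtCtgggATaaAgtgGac
Hbb-y: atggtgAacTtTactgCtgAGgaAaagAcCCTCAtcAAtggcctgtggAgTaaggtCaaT
*Hbb-bs* and *Hbb-bt* are the same over this stretch, while *Hbb-bh1* differs from *Hbb-bs* at 18 and *Hbb-y* at 19 of the 60 bases. Over the 444 coding bases *Hbb-y* and *Hbb-bh1* are 76.4% identical, and *Hbb-bs* and *Hbb-bt* differ at 1 base. Of 417 windows of 28 bases, the size of a footprint, 93.3% of those in *Hbb-bs* also occur in *Hbb-bt*, whereas 0.719% of those in *Hbb-bh1* occur in another gene, the related *Hbb-bh2*.

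The same stretch of the alpha-like genes follows, with capitals at bases that differ from *Hba-a1*.
Hba-a1: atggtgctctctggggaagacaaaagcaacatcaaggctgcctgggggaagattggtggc
Hba-a2: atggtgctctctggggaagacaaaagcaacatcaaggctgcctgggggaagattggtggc
Hba-x: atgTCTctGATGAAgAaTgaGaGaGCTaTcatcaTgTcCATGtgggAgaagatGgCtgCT
*Hba-x* differs from *Hba-a1* at 28 of these 60 bases and is 62.0% identical to it over 429 coding bases. *Hba-a1* and *Hba-a2* differ at C381T alone (the *Hba-a1* base first, counted from the A of the start codon), in capitals in the 30 bases around it.
Hba-a1: gcatgcctctctggaCaaattccttgcctc
Hba-a2: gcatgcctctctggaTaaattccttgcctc
Of the 28-base windows, 94.0% of *Hba-a1* and 93.0% of *Hba-a2* occur in each other or in the pseudogene *Hba-ps4*, so that the counts of *Hba-a1* and *Hba-a2*, like those of *Hbb-bs* and *Hbb-bt*, depend on how reads with several matches were placed and are uncertain as separate values. *Hbb-y*, *Hba-x*, *Slc4a1* and *Alas2* share no window with another annotated coding sequence.

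Promoters of *Hbb-y*, *Hba-a2* and *Alas2* are shown as examples from RefSeq (GRCm38.p6), 120 bases each on the strand of the gene. Each stretch ends before the first transcribed base of the Gencode coordinates given above. Capitals mark any of 4 short motifs, found in these letters or in their reverse complement. These are CCAAT (bound by NF-Y), CACCC (bound by KLF factors such as KLF1), ATAAA (a form of the TATA box) and GATAA (bound by GATA1).
Hbb-y (chr7:103853217-103853336, minus strand): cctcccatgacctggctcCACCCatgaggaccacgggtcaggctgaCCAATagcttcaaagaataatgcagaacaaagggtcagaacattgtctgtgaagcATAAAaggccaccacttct
Hba-a2 (chr11:32296369-32296488, plus strand): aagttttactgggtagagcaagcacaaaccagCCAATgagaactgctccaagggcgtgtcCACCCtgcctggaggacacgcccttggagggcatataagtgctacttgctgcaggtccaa
Alas2 (chrX:150547255-150547374, plus strand): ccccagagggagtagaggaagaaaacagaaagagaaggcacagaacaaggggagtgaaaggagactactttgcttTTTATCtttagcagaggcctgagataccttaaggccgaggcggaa
The capitals in *Alas2* hold GATAA and ATAAA in reverse complement, which overlap by all but the outer bases. Over the 250 bases before the start, 7 members had a RefSeq promoter (*Hbb-y*, *Hbb-bs*, *Hbb-bt*, *Hba-x*, *Hba-a1*, *Hba-a2* and *Alas2*), and each held GATAA 1 time, a motif present in 22.6% of 32851 promoters. CACCC was present in all 7, against 52.0% of promoters, and CCAAT in 5, against 33.8%. The start used for these counts differs from the Gencode one. The last base shown lies 10 (*Hbb-y*), 4 (*Hba-a2*) and 43 (*Alas2*) bases before it. All CACCC matches of *Alas2* lie between 40 and 26 bases before that start, and thus beyond the stretch shown, inside the transcript by the Gencode coordinates. ATAAA was present in 4 of the 7, against 37.3% of promoters. These are matches of letters and not measured binding sites.

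The first question is how many footprints each gene had in each tissue, compared between genes as CPM of the whole library divided by coding length in kilobases. In wild-type embryos *Hbb-bh1* was highest (13404 ± 1683 CPM per kilobase, SD, n = 3), followed by *Hba-x* (13018 ± 1901), and their ranges overlapped. *Hbb-y* came next at 4382 ± 1061, below every library of those 2 genes. The adult alpha genes *Hba-a1* (229 ± 26.5) and *Hba-a2* (98.9 ± 15.4) were far lower, and *Alas2* (32.5 ± 2.16) and *Slc4a1* (31.9 ± 6.30) overlapped each other. The adult beta genes were the lowest, with 16.6 ± 7.27 for *Hbb-bs* and 5.87 ± 3.00 for *Hbb-bt* on the same scale.

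In control cerebella at P14 the order was turned over, as the adult genes led. *Hbb-bs* reached 157 ± 45.1 CPM per kilobase (SD, n = 3), *Hba-a1* 114 ± 22.5 and *Hba-a2* 77.6 ± 14.2, each overlapping with its neighbour in this order. *Hbb-bt* was at 45.8 ± 14.8, *Alas2* at 5.78 ± 1.36 and *Slc4a1* at 1.51 ± 0.829, the last overlapping with *Hbb-bh1* at 1.42 ± 0.887. *Hbb-y* had between 1 and 4 RPF in each control cerebellum, and *Hba-x* had 0 in all 6 cerebellar libraries, where 3 counts would be 0.303%, 0.478% and 0.136% of alpha-like RPF in the cKO and 0.295%, 0.137% and 0.195% in the controls. On library totals, *Hba-x* was thus at least 36505-fold higher in wild-type embryos (6131 ± 896 CPM) than the level that 3 counts per library give in control cerebella. *Hbb-bs* was 9.45-fold higher in control cerebella than in wild-type embryos, while *Hba-a1* and *Hba-a2* were 2.00-fold and 1.27-fold higher in embryos. Libraries of each tissue were sequenced in their own pool, and the embryos and cerebella carry different substrain labels, so that tissue, age, substrain and pool cannot be told apart here. The amount of red cells in each sample was not measured, and neither tissue has RNA libraries. The values are thus not rates of translation per RNA or per cell.

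**Figure D1:**
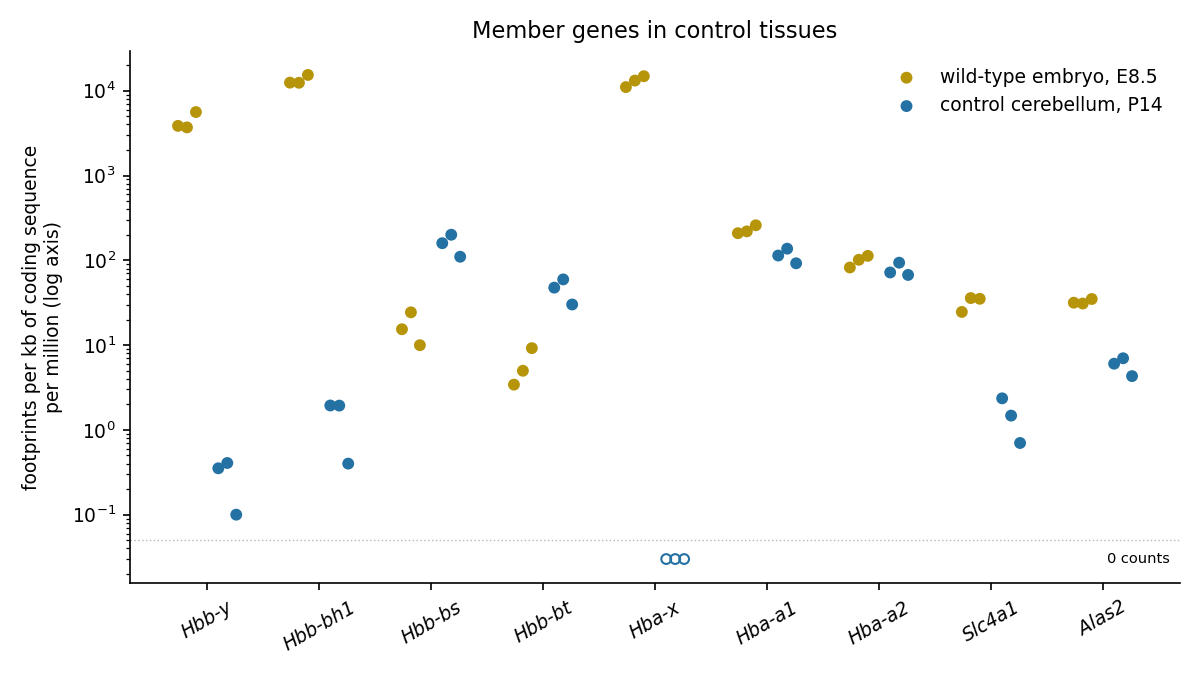
Footprints as CPM per kilobase of coding sequence (log axis) for the 9 genes in 3 wild-type embryo libraries at E8.5 and 3 control cerebellum libraries at P14, each point a library and open points libraries with 0 counts. *Hbb-y*, *Hbb-bh1* and *Hba-x* lie at 3693 or more in embryos and at 1.94 or less in cerebella, and *Hbb-bs* and *Hbb-bt* lie higher in cerebella.

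The second question is how the genes differed between *Hbs1l*-/- and wild-type embryos. The members were chosen with this contrast in view, and the values that follow are a description. All 8 members that passed the filter on low counts had lower means in *Hbs1l*-/- embryos, with a median log2 difference of -1.67 against 0.01 over the 11416 genes tested. In 7 of the 8, every *Hbs1l*-/- library lay below every wild-type library, as it did in 12.3% of all genes tested, and 1.87% of all genes tested passed an adjusted p of 0.05. *Hbb-bt*, with 2 to 12 RPF per library, did not pass the filter, and its groups did not overlap either. In footprints of whole embryos, without RNA libraries, fewer erythroid cells, less RNA per cell and fewer ribosomes per RNA cannot be told apart.

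*Hbb-y*, the embryonic beta-like globin of maturing primitive cells, showed the largest difference of the members. It stood at 149, 271 and 211 CPM in *Hbs1l*-/- replicates 1, 2 and 3 and at 1779, 1691 and 2585 CPM in wild-type replicates 1, 2 and 3. The highest mutant library was thus far under the lowest wild-type library, and the means differed by a log2 value of -3.27, or 9.62-fold. *Hbb-bh1*, the early beta-like globin, was at 2386, 4647 and 1673 CPM in the mutants and at 5757, 5679 and 7079 CPM in wild type. The groups did not overlap, but *Hbs1l*-/- replicate 2 came close to wild type, and the log2 difference was -1.09. The adult beta genes were near the limit of detection in these embryos. *Hbb-bs* gave 25, 22 and 8 RPF in the mutants and 18, 44 and 13 in wild type (3.54, 5.54 and 2.90 against 7.11, 11.2 and 4.60 CPM), and its groups overlapped. *Hbb-bt* gave 5, 6 and 2 RPF in the mutants and 4, 9 and 12 in wild type.

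Among the alpha-like genes, *Hba-x*, the embryonic zeta globin, was at 1850, 3687 and 1253 CPM in *Hbs1l*-/- embryos and at 5414, 6396 and 7261 CPM in wild type. This was a log2 difference of -1.49, without overlap of the groups. The adult gene *Hba-a1* was at 28.2, 35.5 and 12.3 CPM in the mutants and at 93.2, 97.1 and 115 CPM in wild type. Its log2 difference was -1.98. Its near copy *Hba-a2* was at 13.7, 17.6 and 3.63 CPM against 36.7, 44.9 and 50.3 CPM, a log2 difference of -1.86. In each of *Hbb-bh1*, *Hba-x*, *Hba-a1* and *Hba-a2*, *Hbs1l*-/- replicate 3 was the lowest library and replicate 2 the highest of the mutants.

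*Slc4a1*, which links the red cell membrane to its spectrin skeleton through ankyrin and exchanges chloride for bicarbonate, was at 13.5, 22.7 and 21.0 CPM in *Hbs1l*-/- embryos and at 71.5, 103 and 102 CPM in wild type. Its log2 difference of -2.30 was the largest after that of *Hbb-y*, and its groups were well apart. *Alas2*, the entry enzyme of haem synthesis in erythroid cells, was at 21.5, 46.3 and 24.3 CPM in the mutants and at 58.1, 56.3 and 64.1 CPM in wild type. The log2 difference was -0.96, and it came to -1.38 without *Hbs1l*-/- replicate 2.

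**Figure D2:**
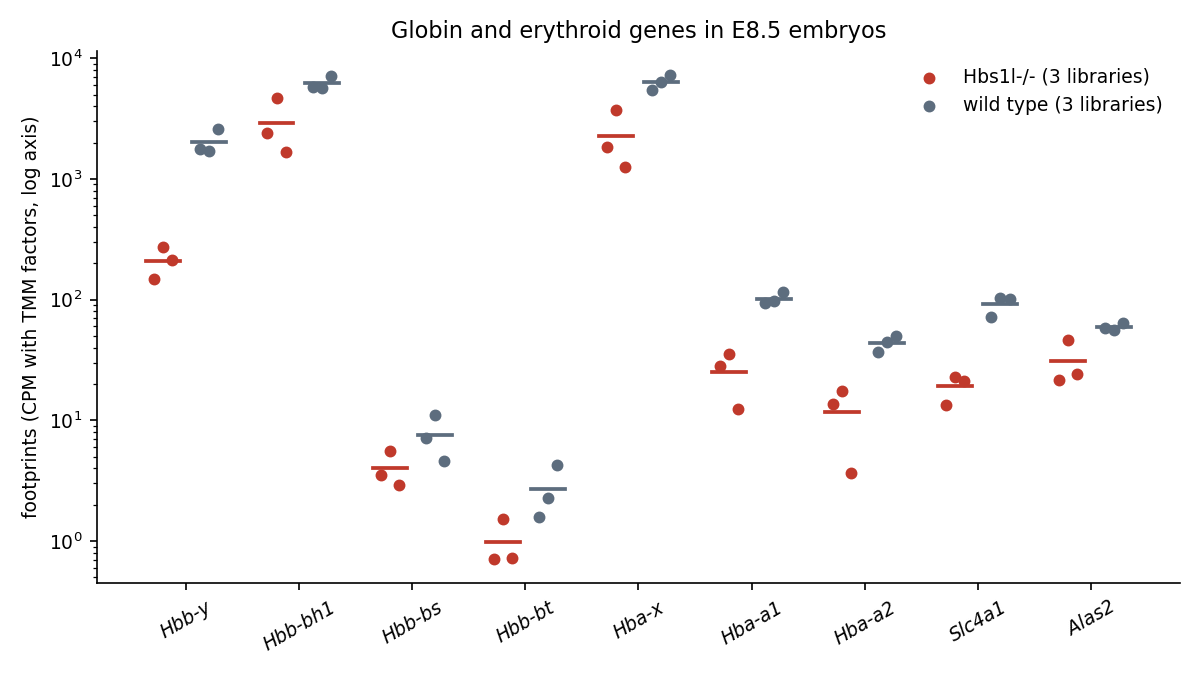
Footprints (CPM with TMM factors, log axis) of the 9 genes in 3 *Hbs1l*-/- and 3 wild-type embryo libraries at E8.5; points are libraries and bars are group means. *Hbb-y* lies at 149 to 271 CPM in the mutants and 1691 to 2585 CPM in wild type, while *Hbb-bs* overlaps between the groups.

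The globin genes were also compared as shares of the globin RPF of each library. *Hbb-y* made up 5.86%, 5.50% and 11.2% of beta-like globin RPF in *Hbs1l*-/- replicates 1, 2 and 3, with 95% Wilson intervals for counting error of 5.53 to 6.21%, 5.19 to 5.83% and 10.3 to 12.1%. In wild-type replicates 1, 2 and 3 it made up 23.6%, 22.9% and 26.7% (23.0 to 24.2%, 22.4 to 23.4% and 26.2 to 27.3%). The share was thus 7.51 ± 3.17% (SD, n = 3) in the mutants and 24.4 ± 2.04% in wild type, and the groups did not overlap. *Hbb-bh1* made up nearly all of the rest, 92.3 ± 3.19% in the mutants and 75.5 ± 2.00% in wild type. Expressed as a ratio, there were 16.0, 17.1 and 7.94 *Hbb-bh1* RPF per *Hbb-y* RPF in the mutants and 3.24, 3.36 and 2.74 in wild type. The share and the ratio use the same counts as the choice of *Hbb-y* did, and were not tested.

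The makeup of alpha-like RPF overlapped between the groups. *Hba-x* was 98.4 ± 0.513% of alpha-like RPF in *Hbs1l*-/- embryos and 97.8 ± 0.0879% in wild type (SD, n = 3). The ratio of *Hba-a1* to *Hba-a2* was 2.05, 2.01 and 3.40 in the mutants, with only 34 and 10 RPF behind the last, and 2.54, 2.16 and 2.30 in wild type. Summed alpha-like over summed beta-like RPF was 0.745, 0.759 and 0.672 in the mutants and 0.735, 0.886 and 0.768 in wild type, so that the groups overlapped. The 7 globin genes together took 0.428%, 0.791% and 0.308% of RPF in *Hbs1l*-/- replicates 1, 2 and 3, and 1.26%, 1.35% and 1.65% in wild-type replicates 1, 2 and 3. Per 1000 globin RPF there were 3.04, 2.61 and 6.67 *Slc4a1* RPF in the mutants and 5.46, 7.41 and 5.97 in wild type, which overlap, whereas *Alas2* gave 4.86, 5.34 and 7.70 in the mutants and 4.44, 4.04 and 3.75 in wild type, each mutant library above each wild-type library.

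**Figure D3:**
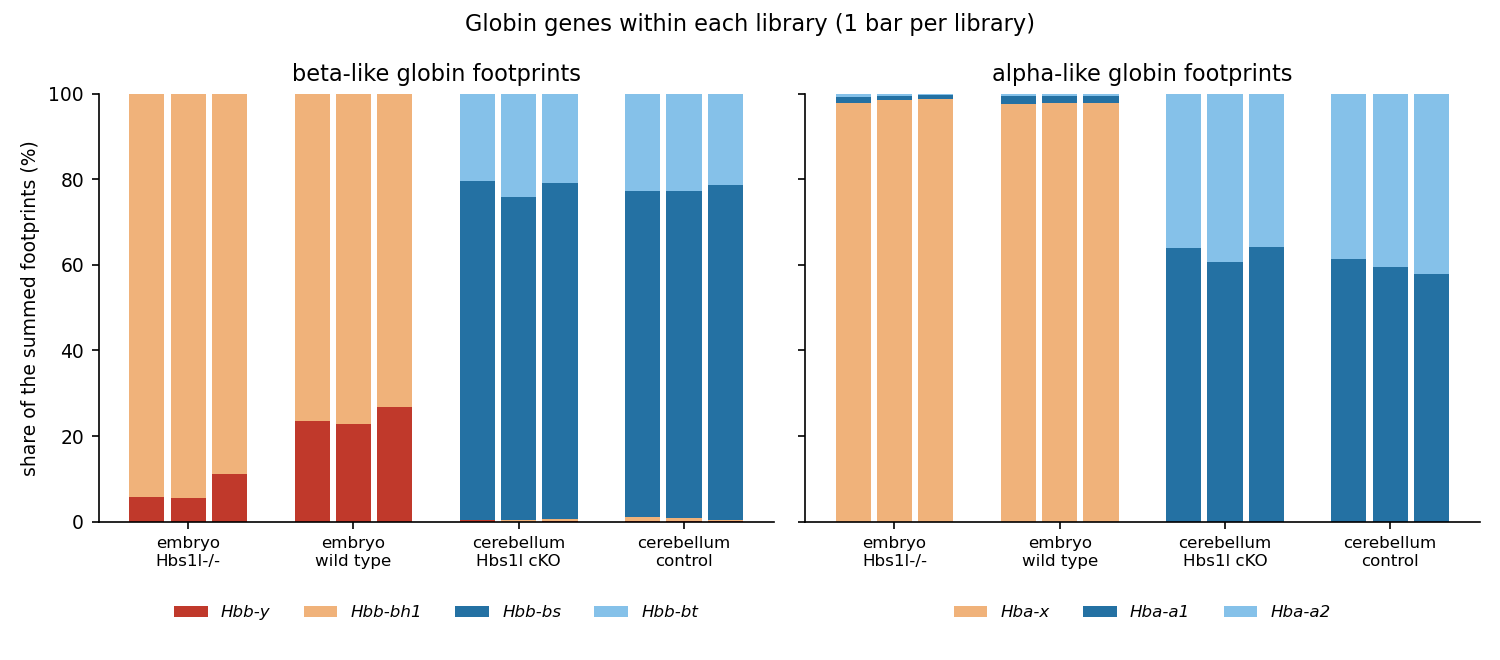
Share (%) of each beta-like gene in the summed beta-like footprints (left) and of each alpha-like gene in the summed alpha-like footprints (right), 1 bar per library in replicate order within each group. The *Hbb-y* share is 5.50 to 11.2% in *Hbs1l*-/- embryos and 22.9 to 26.7% in wild type, *Hba-x* is at 97.7 to 98.7% in the embryo libraries, and *Hbb-bs* with *Hba-a1* lead in cerebella.

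Other erythroid genes were counted in 4 lists of 74 genes, of which 73 have counts and 65 were tested in embryos. Of these 65, 4 fell at an adjusted p of 0.05 (edgeR, quasi-likelihood, with p-values adjusted by Benjamini-Hochberg over all genes) and 0 rose, against 0.955% of all genes called lower and 0.92% called higher. The median log2 difference of the 65 was -0.36, against 0.01 over all genes tested, and in 29 of them every mutant library was below every wild-type library, against 12.3% of all genes tested. The calls depended on single libraries: none of the 4 was called without any 1 of the wild-type replicates 1, 2 or 3 (against 0.377%, 0.247% and 0.385% of all genes tested in those fits), and 16, 7 and 1 genes were called without *Hbs1l*-/- replicates 1, 2 and 3, respectively, against 20.3%, 1.04% and 0.9% of all genes tested in the same fits. DESeq2 called 10 of the 65, 9 lower and 1 higher, against 1.81% and 1.97% of all genes. At an unadjusted p below 0.05, edgeR had 25 of the 65, against 18.6% of all genes.

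Haem synthesis and iron genes held 3 of the 4 calls, where 0.955% of all genes were called lower. *Slc25a37*, encoding mitoferrin-1, which brings iron into erythroid mitochondria, fell from 28.6 ± 1.66 to 13.5 ± 0.888 CPM (SD, n = 3; log2 difference -1.07, edgeR adjusted p = 0.028). *Ftl1*, the ferritin light chain, which stores iron in many cell types, fell from 110 ± 14.7 to 58.8 ± 6.27 CPM (log2 difference -0.89, edgeR adjusted p = 0.0206). With 1 library left out, the log2 difference of *Slc25a37* lay between -1.13 and -1.03 and that of *Ftl1* between -0.99 and -0.79. All 18 genes of this list were tested, 15 with a negative log2 difference and a median of -0.35, and 15 did not pass. The haem enzymes *Uros* (log2 difference -0.91, edgeR adjusted p = 0.0984) and *Cpox* (-0.52, edgeR adjusted p = 0.114) were among those that did not pass; they and the genes below that missed the threshold were picked for mention after their values were seen.

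Of 18 genes for the red cell membrane and skeleton 16 were tested with edgeR, and 0 passed, against 1.87% of all genes. An unadjusted p below 0.05 was found for 6, against 18.6% of all genes. DESeq2 called 2, against 1.81% of all genes called lower and 1.97% higher. The median log2 difference was -0.66, and 13 of the 16 were negative. *Rhag*, the Rhesus-associated glycoprotein, was at 3.35 ± 2.33 CPM in *Hbs1l*-/- and 11.7 ± 5.58 in wild type (log2 difference -1.82, edgeR adjusted p = 0.0798). With 1 library left out its log2 difference lay between -2.56 and -1.38. *Rhag* was called without the filter on low counts, with the replicate block, by DESeq2 and without *Hbs1l*-/- replicate 2, and not with any other library left out. *Ank1*, the ankyrin that anchors band 3, was at 17.4 ± 9.85 and 34.8 ± 3.13 CPM (log2 difference -0.99, edgeR adjusted p = 0.118).

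The regulators gave 0 calls among 19 of 20 genes tested with edgeR, against 1.87% of all genes. An unadjusted p below 0.05 was found for 6, against 18.6% of all genes. DESeq2 called 3, against 1.81% of all genes called lower and 1.97% higher. The median log2 difference of the regulators was -0.38. *Klf1*, the activator of many erythroid genes, was at 12.7 ± 4.76 CPM in *Hbs1l*-/- and 28.8 ± 3.30 in wild type (log2 difference -1.13, edgeR adjusted p = 0.0555). *Epor*, the erythropoietin receptor, was at 9.03 ± 2.74 and 20.2 ± 5.27 CPM (log2 difference -1.11, edgeR adjusted p = 0.0807), and *Gata1*, the erythroid GATA factor, at 24.5 ± 7.15 and 32.1 ± 6.34 (log2 difference -0.38, edgeR adjusted p = 0.415). *Gata2*, the GATA factor of early progenitors, went the other way, at 37.1 ± 17.1 against 14.4 ± 4.4 CPM (log2 difference 1.35, edgeR adjusted p = 0.0569). *Myb*, the neighbour of *Hbs1l* in the genome, was at 5.58 ± 3.34 and 3.14 ± 1.24 CPM, which overlap (log2 difference 0.71, edgeR adjusted p = 0.478). With 1 library left out its log2 difference lay between 0.17 and 0.98, and *Hbs1l*-/- replicate 3 stood highest, at 9.43 CPM.

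Among enzymes and genes of red cell maturation, 12 of 18 were tested and 1 passed, as lower, against 0.955% of all genes called lower. *Blvrb*, biliverdin reductase B, fell from 69.9 ± 15.3 to 32.7 ± 11.1 CPM (log2 difference -1.07, edgeR adjusted p = 0.0434, and -1.28 to -0.84 with 1 library left out). The median of the 12 was -0.19, and *Gpx1*, a glutathione peroxidase, differed by -0.64 (edgeR adjusted p = 0.0729). The only other globin gene with enough counts, *Hbb-bh2*, shares some sequence with *Hbb-bh1* and was at 9.52 ± 7.64 CPM in *Hbs1l*-/- and 5.72 ± 2.95 in wild type (log2 difference 0.76, edgeR adjusted p = 0.491).

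Markers of other tissues also moved between the embryo groups, and their part in the erythroid differences was not tested. Trophoblast genes rose in 6 of 11 tested (of 17), against 0.92% of all genes, with a median log2 difference of 2.64. *Prl3d1*, a placental lactogen of trophoblast giant cells, was at 84.2, 43.5 and 61.7 CPM in *Hbs1l*-/- replicates 1, 2 and 3 and at 0.790, 3.55 and 3.19 CPM in wild type (log2 difference 4.57, edgeR adjusted p = 1.7e-05). The other 5 that rose were *Prl2c2*, *Prl2a1*, *Prl4a1*, *Plac1* and *Rhox9*, and without any 1 wild-type replicate *Prl2a1*, *Prl4a1*, *Plac1* and *Rhox9* were not called; *Rhox9* was not called without *Hbs1l*-/- replicate 3 either, and DESeq2 gave *Plac1* an adjusted p of 0.0527. The summed level of the 17 trophoblast genes was 1802, 1466 and 3104 CPM in *Hbs1l*-/- replicates 1, 2 and 3, and 1239 to 1584 CPM in wild type. The lowest mutant library was replicate 3 in *Hbb-bh1* and *Hba-x* and replicate 1 in *Hbb-y*, *Slc4a1* and *Alas2*. Whether the trophoblast and erythroid levels go together was not tested. Of the 17, *Prl3b1* and *Ctsq* had 0 counts in every library, and *Gcm1* and *Ctsj* had 0 counts in the wild-type libraries.

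Visceral endoderm, the yolk sac layer that lies against the blood islands, had 0 of 17 tested genes called by edgeR and 0 by DESeq2. Of all genes, edgeR called 1.87%, and DESeq2 called 1.81% lower and 1.97% higher. The median log2 difference of the 17 was 0.21. At an unadjusted p below 0.05 edgeR had 6 of the 17, against 18.6% of all genes. Its 18 genes summed to 17408, 34358 and 25754 CPM in *Hbs1l*-/- replicates 1, 2 and 3 and to 20498, 21692 and 23862 CPM in wild type, with *Apoc2* at 0 in both groups. Mutant replicate 2 had the highest summed level of the 6 libraries here, and its relation to the globin levels was not tested. Of 8 fibroblast and mesenchyme genes, all tested, 7 had a negative log2 difference, with a median of -0.56 that was lower than the -0.36 of the erythroid lists. The collagen genes *Col1a1* (log2 difference -0.88, edgeR adjusted p = 0.0324) and *Col3a1* (-1.35, edgeR adjusted p = 0.00789) fell, 2 of the 8, against 0.955% of all genes called lower. *Col3a1* was not called without any 1 wild-type replicate, and *Col1a1* with 1 library left out was called only without *Hbs1l*-/- replicate 1. The 8 genes summed to 1565 to 2028 CPM in the mutants and 1969 to 2830 CPM in wild type, which overlap, with 0 genes at 0. Endothelial genes rose in 2 of 14, against 0.92% of all genes, *Pecam1* (log2 difference 1.27, edgeR adjusted p = 0.00328) and *Flt1* (0.88, edgeR adjusted p = 0.0226). The list went both ways, with 6 of the 14 negative and a median log2 difference of 0.07. Its genes summed to 801 to 1028 CPM in the mutants and 788 to 845 CPM in wild type, with 0 genes at 0. *Pecam1* was not called without wild-type replicate 2 (adjusted p = 0.0539), and *Flt1* was called only with all libraries or without *Hbs1l*-/- replicate 1. The megakaryocyte list had 3 of 13 genes tested and summed to 52.4 to 80.8 CPM in the mutants and 48.2 to 55.7 CPM in wild type. Of the 3, 1 was called higher, against 0.92% of all genes. This was *Itgb3* (log2 difference 1.64, edgeR adjusted p = 0.0325), which was not called without *Hbs1l*-/- replicate 3 or any 1 wild-type replicate. Of this list *Gp9* and *Treml1* had 0 counts in the mutants and *Gp6* in wild type. Decidua genes (5 of 8 tested) and macrophage genes (3 of 15) had 0 calls by edgeR, against 1.87% of all genes. They had 0 by DESeq2, against 1.81% of all genes called lower and 1.97% higher. At an unadjusted p below 0.05 edgeR had 1 and 0 of them, against 18.6% of all genes. They summed to 109 to 360 and 35.0 to 50.6 CPM in the mutants and to 86.9 to 178 and 29.2 to 36.0 CPM in wild type, and *Aif1* was the only one of them at 0, in the mutants.

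**Figure D4:**
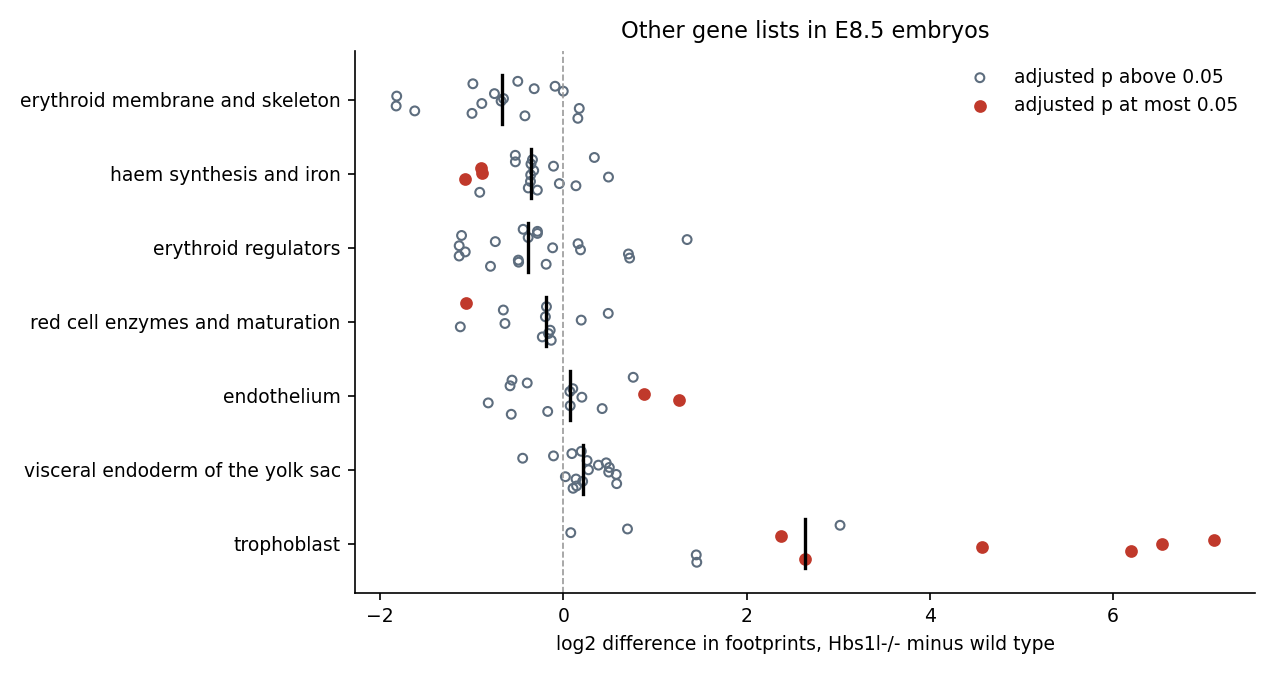
Log2 difference in footprints, *Hbs1l*-/- minus wild type, for each tested gene of 7 lists in E8.5 embryos (3 against 3 libraries); filled points passed an adjusted p of 0.05 and black bars are list medians. The 4 erythroid lists have medians from -0.66 to -0.19, with 4 genes called lower, and trophoblast has a median of 2.64, with 6 called higher.

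The genes whose values over the 6 embryo libraries were most like those of *Hbb-y* were found by the root mean square difference of log2 CPM, after centring each gene on its mean, among 10485 genes with a mean of at least 5 CPM. *Slc4a1* was the closest of all genes (0.55 log2 units), and *Hba-a1* was at position 5 (0.77), *Hba-a2* at 12, *Hba-x* at 13, *Hbb-bh1* at 48, *Alas2* at 71 and *Hbb-bs* at 464. The fall of *Hbb-y* and *Slc4a1* in these libraries was part of the reason for choosing the members. The positions of members thus partly restate that choice and are not a test. The median over all ranked genes was 1.69. Outside the 9 members the closest were *Hbs1l* itself (0.62), *Nppa* (0.70), *Tnni3* (0.75), *Casq1* (0.84) and *Rhag* (0.84). *Nppa*, the atrial natriuretic peptide, was at 1.85 ± 1.23 CPM in *Hbs1l*-/- and 10.1 ± 2.38 in wild type, and *Tnni3*, cardiac troponin I, at 2.67 ± 1.00 and 15.4 ± 4.21. *Casq1*, a calcium-binding protein of the sarcoplasmic reticulum, was at 2.02 ± 0.876 and 9.76 ± 1.5 CPM. These genes were picked for this likeness, which follows the group difference of *Hbb-y*, and are given without a test. All 8 embryo markers were tested, and 5 had a negative log2 difference, with a median of -0.32. At an unadjusted p below 0.05 edgeR had 6 of them, against 18.6% of all genes. Only the cardiac gene *Tnnt2* was called, as lower (log2 difference -1.01, edgeR adjusted p = 0.00723), against 0.955% of all genes called lower. It was not called without wild-type replicate 2, at an edgeR adjusted p of 0.0904. The 8 genes summed to 243 to 333 CPM in the mutants and 362 to 408 CPM in wild type.

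The third question is whether the same genes differed in cerebella, where the choice of members used no value and edgeR's test applies. Atoh-Cre acts in the granule cell lineage, and per the methods of the study the cKO mice carry a null allele beside the floxed one. *Hbs1l* in their red cells was not measured, so that the comparison does not address its full loss in erythroid cells. Nearly all globin RPF in this tissue came from the adult genes. In control cerebella *Hbb-bs* made up 76.9 ± 1.15% and *Hbb-bt* 22.3 ± 0.779% of beta-like RPF (SD, n = 3), and in cKO cerebella 77.8 ± 2.04% and 21.8 ± 2.01%. *Hba-a1* made up 63.0 ± 2.01% of alpha-like RPF in the cKO and 59.5 ± 1.74% in the controls, with near copies as set out above. The 7 globin genes together took 0.0108%, 0.0139% and 0.0172% of RPF in cKO replicates 1, 2 and 3 and 0.0173%, 0.0216% and 0.0131% in control replicates 1, 2 and 3, and these ranges overlap.

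Of the 9 members 6 passed the filter in cerebella and 0 were called by edgeR or by DESeq2, where 0.0624% of all genes tested passed in edgeR and 3.35% in DESeq2. At an unadjusted p below 0.05 there were 0 members by edgeR and 1 by DESeq2, against 13.4% and 13.5% of all genes. The groups overlapped in all 6, while every cKO library lay below every control library in 8.91% of all genes tested. *Hbb-bs*, the main adult beta globin, was at 46.2, 61.2 and 56.0 CPM in the cKO and at 75.1, 92.8 and 50.0 CPM in the controls. Its log2 difference was -0.42 (95% interval -0.91 to 0.08, edgeR adjusted p = 0.449). *Hbb-bt* was at 11.8, 19.5 and 15.0 against 22.5, 27.6 and 13.7 CPM, a log2 difference of -0.47 (-1.10 to 0.16, edgeR adjusted p = 0.507). In both genes control replicate 3 was low, inside the range of the cKO.

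Of the adult alpha genes, *Hba-a1* was at 29.3, 34.7 and 60.7 CPM in the cKO and at 51.9, 61.4 and 40.4 CPM in the controls, a log2 difference of -0.30 (95% interval -0.91 to 0.32, edgeR adjusted p = 0.683). *Hba-a2* was at 16.5, 22.5 and 33.8 against 32.8, 42.0 and 29.5 CPM, a log2 difference of -0.52 (-1.10 to 0.06, edgeR adjusted p = 0.425). cKO replicate 3, the highest of its group in both genes, had 1.32 alpha-like RPF per beta-like RPF, against 0.786 and 0.706 in cKO replicates 1 and 2 and 0.858, 0.851 and 1.09 in the controls.

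*Slc4a1* was at 2.54, 8.20 and 1.33 CPM in the cKO and at 6.99, 4.29 and 2.00 CPM in the controls, from 31 to 91 RPF, and its log2 difference of -0.18 had an interval from -1.69 to 1.33 (edgeR adjusted p = 0.930). The sign turned positive without cKO replicate 1 (0.07), cKO replicate 3 (0.27) or control replicate 1 (0.29). *Alas2* was at 6.66, 10.6 and 13.2 against 11.3, 12.9 and 7.77 CPM, a log2 difference of -0.07 (-0.71 to 0.58, edgeR adjusted p = 0.938), which turned positive without cKO replicate 1 (0.17) or control replicate 2 (0.10). The 3 embryonic globins could not be tested here, with 0 to 4 RPF of *Hbb-y*, 0 to 19 of *Hbb-bh1* and 0 of *Hba-x* per library.

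**Figure D5:**
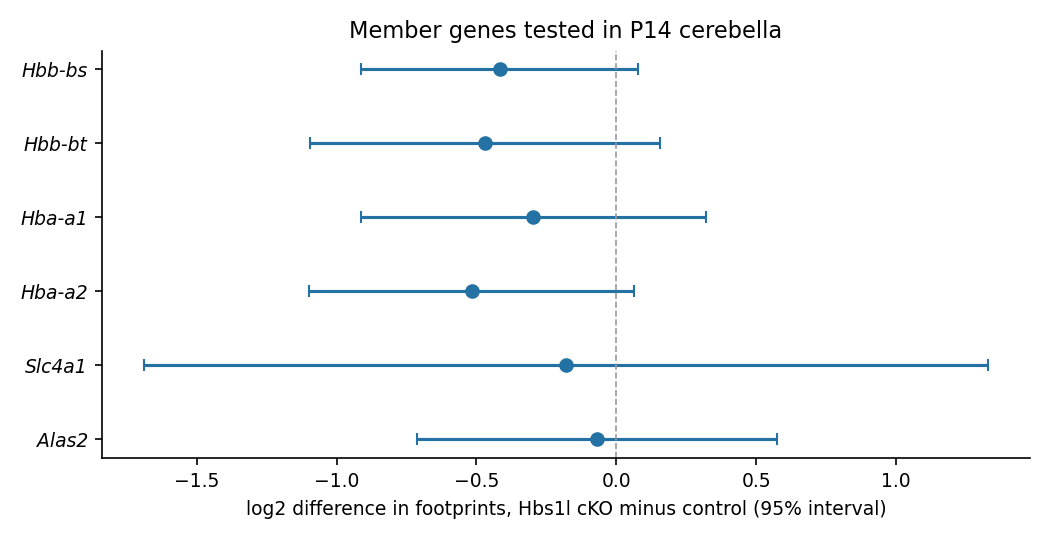
Log2 difference in footprints, *Hbs1l* cKO minus control (3 against 3 libraries), with 95% intervals computed from edgeR's test, for the 6 genes tested in P14 cerebella. The points lie between -0.52 and -0.07 and every interval includes 0.

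The other erythroid lists had 62 genes tested in cerebella and 0 called by edgeR, with 11 at an unadjusted p below 0.05 (against 13.4% of all genes) and 2 called by DESeq2, 1 in each direction (against 3.35% of all genes). Their median log2 difference was -0.09, against 0.00 over all genes tested. Many of these genes are also used by neurons and other cells of the tissue, so that their footprints are not those of red cells alone.

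Fibroblasts held almost no signal for the members. Their libraries were sequenced in other pools than those of embryos and cerebella, so that these counts give no background for those tissues. Of 230937105 RPF in 18 MEF libraries, 2 were assigned to *Hbb-y*, both in *Hbs1l*-/- replicate 1, and 1 to *Hba-x*, in *Pelo*-/- replicate 3, and the other 7 genes had 0, which allows up to 0.0130 CPM over all libraries. Per library, 3 counts stand for 0.117 to 0.519 CPM. In RNA, 476496292 estimated counts in 11 libraries held 39 counts of the members, at most 9 in any library, and 27 of them were *Alas2*. *Hbb-y* had 6 RNA counts in 2 libraries (at most 0.199 TPM), *Hba-a1* 3, *Hba-x* 2, *Hbb-bh1* 1, and *Hbb-bs*, *Hbb-bt*, *Hba-a2* and *Slc4a1* 0. No member passed the filter in any of the 6 MEF comparisons, so that whether *Pelo*, *Upf2* or *Hbs1l* loss changes their translation was not detectable at this depth in these cells.

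The other erythroid lists, whose members such as *Tfrc* or *Fech* are not restricted to red cells, gave shares of calls on either side of the background in MEFs. In RPF, 12 of 44 tested genes were called in *Hbs1l*-/- cells (4 higher, 8 lower) against 34.1% of all genes, and 27 of 50 in *Pelo*-/- cells (18 higher, 9 lower) against 44.1%. In libraries labelled *Upf2*-/- 21 of 49 were called (12 higher, 9 lower) against 43.4%. In RNA the counts were 16 of 51 against 23.1% for *Hbs1l*, 19 of 50 against 32.1% for *Pelo*, and 9 of 54 against 20.0% for the libraries labelled *Upf2*-/-. Macrophage genes also moved in these cells, and their part in the erythroid calls was not tested. They rose in 12 of 15 in *Hbs1l*-/- RPF (median log2 difference 0.75), 15 of 15 in *Pelo*-/- RPF (1.82) and 7 of 14 in RPF labelled *Upf2*-/- (0.43), and in 11, 1 and 0 of 15 in RNA, respectively, by edgeR. Of all genes tested, 2081 of 11984, 2858 of 12486 and 2715 of 12166 were called higher in RPF. In RNA these were 1944 of 15318, 2283 of 14705 and 2113 of 15983. At an unadjusted p below 0.05 edgeR had 0 macrophage genes in RNA labelled *Upf2*-/-, against 5560 of 15983 genes. DESeq2 called 0 of them there, against 3715 of 15983 genes. The 15 genes summed to 298 to 416, 567 to 811 and 231 to 278 CPM in the RPF of the 3 mutants, against 165 to 228 CPM in the controls, and in RNA to 219 to 297, 149 to 219 and 105 to 174 CPM, against 112 to 169 CPM, with 0 genes at 0. Over the tested genes of the 4 erythroid lists together, the median log2 difference lay between -0.07 and 0.12 in the 6 comparisons, while the medians of single lists ranged from -0.31 (enzymes and maturation) to 0.40 (regulators), both in *Pelo*-/- RNA. The 3 RNA comparisons share their control libraries, and the RPF controls of the 3 pools are not independent either, as given above.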

How the data were processed

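The authors deposited raw footprint counts, 1 whole number per gene, and, for RNA, estimated counts and TPM values per transcript made with kallisto 0.42.4. Per their methods and processing notes, adapters were clipped, reads on ribosomal RNA, snoRNA and tRNA were removed with Bowtie2 2.2.3, the remainder was mapped to mm10 with HISAT2 2.1.0 and counted over coding sequences with featureCounts; how reads with several matches were treated is not given in the sources used here. The deposited TPM values are scaled for transcript length and depth and were used only for the highest RNA level of a gene.

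Each mutant was compared with the controls of its own pool in edgeR 4.0.16 (R 4.3.3) by the quasi-likelihood test, after filterByExpr, scaled by TMM, with p-values adjusted by Benjamini-Hochberg over all genes tested (threshold 0.05); histone genes were left out of footprint fits, and the estimated counts of the transcripts of a gene were added up, then rounded. The 95% intervals of log2 differences were computed from edgeR's log2 difference and test statistic, and so restate that test. The pipeline was tested on simulated data. Shares carry Wilson intervals (95%, scipy 1.17.1) where at least 100 counts stand behind them, and these and the limits from 3 counts cover counting error only, since reads carry no molecular identifiers. Levels per kilobase use the longest coding sequence. Replicates are separate pools of embryos, mice or embryo-derived cultures, and 3 per group limit the precision. Alternatives were DESeq2 1.42.0, RLE factors, no filter on low counts, the 9 genes left out of library sizes, the replicate number as a block, and leaving out each library.

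The members, the lists and the rules were chosen with earlier results of these data known. Named are the 9 members, the targeted genes, list genes past the threshold (up to 8 per list by mean CPM), list genes given as background, and the 5 genes most like *Hbb-y*; genes named after their values were seen are marked as such. Some list genes are counted in the totals but not reported here by name.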

Additional observations from a re-analysis of the deposited data

Results flagged for a closer look

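In some of the genes named here every *Hbs1l* mutant library lay beyond every control library in a pair of tissues, with opposite signs; the difference between tissues was not tested, and in each of the erythroid genes 1 of the 2 sides did not pass an adjusted p of 0.05. *Slc25a37* differed by a log2 value of -1.07 in embryos (edgeR adjusted p = 0.028) and by 0.24 in *Hbs1l*-/- MEF footprints (edgeR adjusted p = 0.306). *Gata2* differed by a log2 value of -0.55 in *Hbs1l*-/- MEF footprints (edgeR adjusted p = 0.0262) and by 1.35 in embryos (edgeR adjusted p = 0.0569). Of the genes of the 4 erythroid lists tested in both embryo and *Hbs1l*-/- MEF footprints, 4 of 41 met this criterion, as did 4.59% of all genes tested in both. *Ftl1* differed by a log2 value of -0.89 in embryos (edgeR adjusted p = 0.0206) and by 0.77 in cerebella (edgeR adjusted p = 0.105), where 2 of 59 list genes and 2.43% of all genes tested in both tissues met it. Between cerebella and *Hbs1l*-/- MEF footprints it was met by 3 of 44 list genes and 2.43% of all genes. These shares rest on few list genes and are not read as a property of the lists. The fibroblast gene *Col3a1* differed by a log2 value of -1.35 in embryos (edgeR adjusted p = 0.00789) and by 0.94 in *Hbs1l*-/- MEF footprints (edgeR adjusted p = 1.1e-05). No group holds more than 3 libraries, so that no search for outlying libraries was made.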

How the results depend on the processing

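Under DESeq2, RLE factors, no filter on low counts, the 9 genes left out of library sizes, the replicate block and each left-out library, the log2 difference of every tested member in embryos stayed negative (*Hbb-y* -3.49 to -3.05, *Slc4a1* -2.47 to -2.08, *Hbb-bs* -1.23 to -0.54), and no member was called in cerebella under any of them, with *Hbb-bs* at adjusted p values from 0.0574 to 0.886. Without *Hbs1l*-/- replicate 2, *Alas2* came to -1.38 in embryos and *Hbb-bh2* turned to -0.16 (up to 1.22 without replicate 1). In cerebella, leaving out 1 library turned *Slc4a1* positive in 3 cases (log2 difference -1.17 to 0.29) and *Alas2* in 2 (-0.32 to 0.17). The count of called genes moved far more than the members did. In embryos, where 214 genes were called, it was 703 without the filter, 564 with the replicate block, 432 with DESeq2 and 28 to 2309 with 1 library left out. For the other erythroid genes there, where 4 were called, it was 15, 13, 10 and 0 to 16. In cerebella, where 9 were called, it was 16 without the filter, 0 with the replicate block, 484 with DESeq2 and 0 to 560 with 1 library left out. With 1 library left out, MEF RNA calls ranged from 1817 to 2663 for *Hbs1l* (3542 with all), 1506 to 4802 for *Pelo* (4727 with all) and 1800 to 3201 for *Upf2* (3194 with all), and the replicate block gave 2955 for *Pelo*. The cause was not tested. The replicate numbers did not pair the libraries: same-numbered libraries correlated by 0.01 to 0.03 in embryos and -0.23 to 0.25 in cerebella, after centring each group. Few RPF lie behind the values of *Hbb-bs* and *Hbb-bt* in embryos, the embryonic globins in cerebella and all 9 genes in MEFs, although the libraries of cerebella and most of those of MEFs are deeper than those of embryos.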
